A study of Caenorhabditis elegans with 3 samples.

Results

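The cytosolic chaperonin CCT, also called TRiC, was followed through the transcripts of its subunit genes in adult Caenorhabditis elegans. The complex is named by the genes cct-1 to cct-8, and members were taken as the probes assigned to exactly 1 of these genes by the platform annotation. Of the 8 genes, 6 had such a probe (cct-1, cct-2, cct-4, cct-5, cct-6 and cct-7), each with 1 probe and a value on every array, out of 15168 genes with a probe of their own. The genes cct-3 and cct-8 had no probe assigned to them alone and are not analysed here. All 6 measured members entered the tests, so none was lost to a filter.

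The samples were 3 preps of RNA from adult hermaphrodites, described in the labels as "w/ emb", which was read as carrying embryos. The code TP11 and the number 2 in the group's name were not interpreted. Each prep was compared, on its own 2-colour array, with wild-type RNA labelled as a mixed reference, so there was 1 group of 3 arrays and no separate control group. No genotype was given for the adults beyond this, nor an age, a temperature or the make-up of the mixture. All values are log2 ratios, adult over reference, after the median of each array was set to 0. The labels place the reference in channel 1 and the adults in channel 2 without naming the dyes, so the direction is likely rather than settled, and every "higher" below depends on it. The labels do not say whether the preps were grown separately, and the p-values therefore reflect only the variation among these preps, which may be technical.

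CCT is a barrel of stacked rings in which related but distinct subunits occupy fixed places. Its subunits bind and hydrolyse ATP, and this closes a lid over an unfolded protein held in the cavity. Actin and tubulin are its best known substrates, and WD-repeat proteins such as the anaphase activator Cdc20 and G protein beta subunits also pass through it. In C. elegans the complex is needed for tubulin folding and for microtubule function in the early embryo. The array measured transcripts, not the assembled complex.

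Transcripts of 5 of the 6 measured subunits were higher in the adults than in the reference, and none was lower in limma (0 also at an unadjusted p under 0.05). The means ran from 1.31-fold for cct-5, the only measured subunit that did not pass the test, to 2.25-fold for cct-6. All 6 genes had a positive ratio on each of the 3 arrays, as did 30.2% of all 19710 probes tested, while 30.7% were negative on each, the share that would apply if the ratio ran the other way. In limma, fitted over those probes with Benjamini-Hochberg adjustment and a threshold of 0.05, 15.8% of all probes were called higher (3116 probes, against 3186 called lower) and 32.0% were called in either direction, against 5 of 6 CCT probes.

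The largest mean ratio belonged to cct-6 (F01F1.8, chromosome III), the zeta subunit. Its log2 ratios were 1.63 on prep 1, 0.89 on prep 2 and 0.98 on prep 3. Prep 1 stood clear of the other preps, which lay close together. The mean was 1.17 ± 0.40 (SD, n = 3), with a standard error of 0.20 and an adjusted p of 0.0012 in limma.

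The beta subunit gene cct-2 (T21B10.7, chromosome II), whose human counterpart is mutated in an inherited retinal dystrophy, was measured at 1.29, 0.97 and 1.08 on preps 1, 2 and 3. These values were the closest together of any subunit, and the mean was 1.11 ± 0.16 (SD, n = 3; 2.16-fold, adjusted p = 0.00077 in limma). Only cct-6 and cct-2 had a mean of at least 2-fold, a level at which 5.59% of all probes were called higher and 6.73% lower.

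The eta subunit gene cct-7 (T10B5.5, chromosome V) gave 1.38, 0.71 and 0.83 on preps 1, 2 and 3. It was 1.96-fold higher on average (0.97 ± 0.36, SD, n = 3, adjusted p = 0.0028 in limma), with prep 1 again well above the others. The alpha subunit gene cct-1 (T05C12.7, chromosome II), the worm form of the founding family member TCP1, gave 1.14, 0.59 and 0.95. Its mean of 0.89 ± 0.28 (SD, n = 3) corresponded to 1.86-fold, with an adjusted p of 0.0035 in limma. For cct-1 the value of prep 3 lay nearer to prep 1 than to prep 2.

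The delta subunit gene cct-4 (K01C8.10, chromosome II) was the lowest of the subunits that passed. Its values were 0.98, 0.37 and 0.76 on preps 1, 2 and 3, so that prep 2 was well below the others. The mean was 0.70 ± 0.31 (SD, n = 3; 1.63-fold, adjusted p = 0.014 in limma). The call depended on prep 3. Without that array the mean was 0.67 and the adjusted p in limma was 0.065, in a fit whose standard error of 0.29 was the same for all 6 genes and came wholly from the other probes.

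The epsilon subunit gene cct-5 (C07G2.3, chromosome III), whose human counterpart is mutated in a hereditary sensory neuropathy, gave 0.57, 0.13 and 0.49. All values were above 0, and that of prep 2 was near it. The mean of 0.39 ± 0.24 (SD, n = 3) had an unadjusted p of 0.049 and an adjusted p of 0.12 in limma, and it did not pass under any of the 9 alternative settings tried, with adjusted p-values from 0.077 to 0.43. With a standard error of 0.18, a difference of this size was not detectable with 3 arrays after adjustment, which does not show that cct-5 was unchanged.

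**Figure D1:**
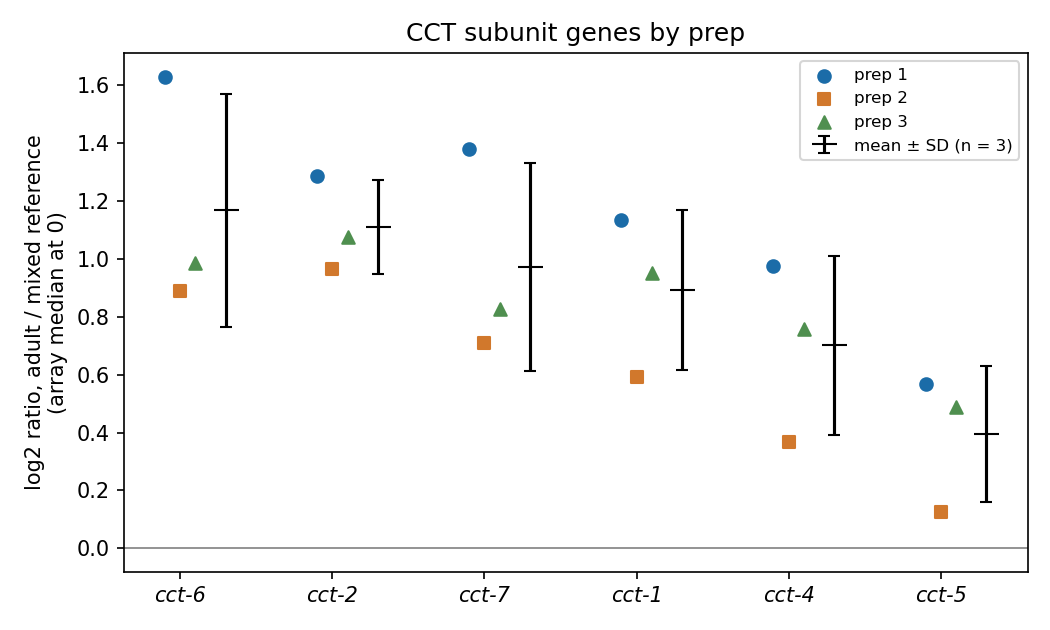
Log2 ratio of adult over mixed reference RNA (vertical axis, array median at 0) for the 6 measured CCT genes, in order of their means. Coloured symbols are the 3 preps and black bars are mean ± SD (n = 3). All symbols lie above 0, prep 1 is the highest and prep 2 the lowest for each gene, and cct-5 has the lowest value of the genes on each prep.

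In log2 units the 6 genes had the same order of the arrays. In the percentiles given below, only cct-6 and cct-7 kept that order. Each of the 6 had its highest ratio on prep 1 and its lowest on prep 2. The mean over the genes was 1.16 on prep 1, 0.61 on prep 2 and 0.85 on prep 3, or 0.87 ± 0.28 (SD, n = 3), which is 1.83-fold. The arrays themselves differed in spread. The robust SD of all probes was 0.770 on prep 1, 0.483 on prep 2 and 0.368 on prep 3. In units of that spread, the CCT mean was 1.51, 1.26 and 2.31 robust SDs above the array median, so prep 3 and not prep 1 was then the most extreme. Whether the array's spread sets the pattern over preps was not tested, and with 1 array per prep the prep, the array and any batch cannot be told apart.

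The place of each gene within its array does not depend on that spread. The gene cct-6 lay at percentile 96.4, 94.3 and 95.7 of all tested probes on preps 1, 2 and 3, and cct-2 at 92.9, 95.5 and 96.8. The values of cct-7 were 94.1, 90.9 and 93.3, and those of cct-1 were 90.6, 88.2 and 95.2. These 4 genes thus stayed in the upper tail of every array. The gene cct-4 lay at 87.8, 78.9 and 91.9, and cct-5 at 76.8, 61.6 and 84.7, both nearer to the bulk of the probes.

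**Figure D2:**
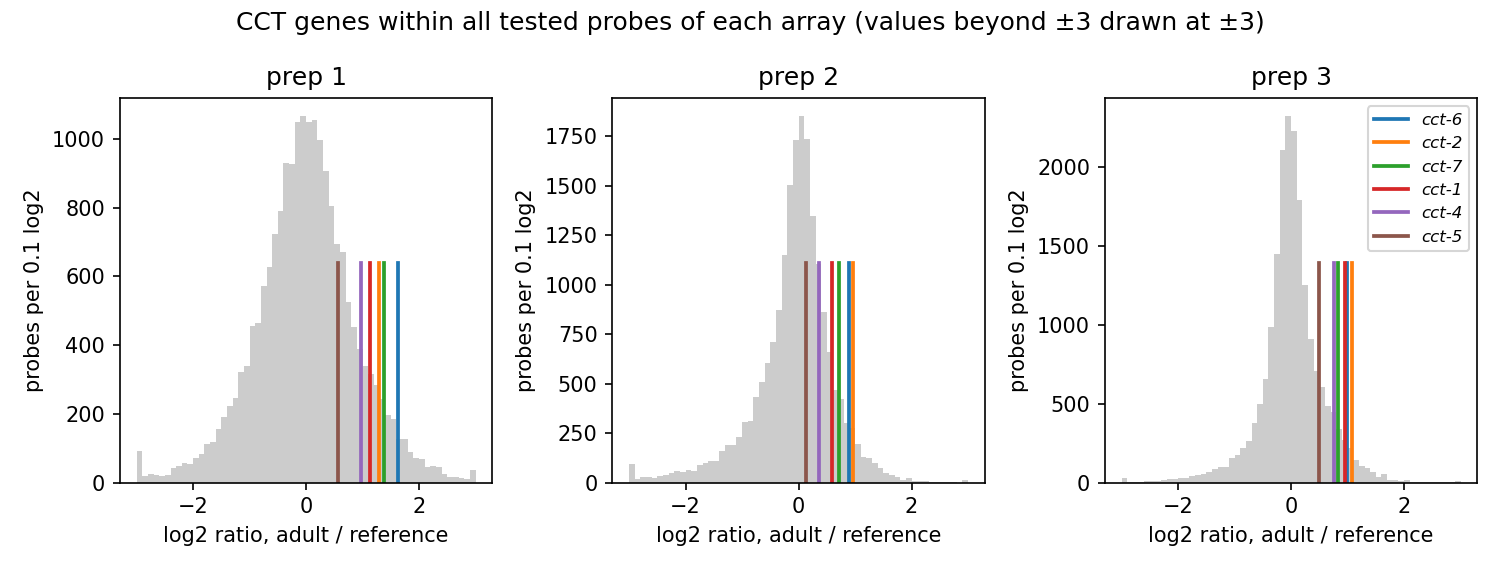
Histograms of the log2 ratios of all 19710 tested probes on each array (horizontal axis, values beyond 3 in either direction drawn in the last bin; vertical axis, probes per bin) with the 6 CCT genes as coloured lines whose height has no meaning. The distribution is widest on prep 1 and narrowest on prep 3, and cct-5 and cct-4 are the members closest to its centre on each array.

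Ranked by mean ratio, the order was cct-6, cct-2, cct-7, cct-1, cct-4 and cct-5. Of the 5 neighbouring pairs in this order, 3 did not differ beyond their spread when the genes were subtracted within each array. The difference was 0.06 ± 0.25 (SD, n = 3) for cct-6 over cct-2, 0.14 ± 0.20 for cct-2 over cct-7 and 0.08 ± 0.19 for cct-7 over cct-1. In each of these pairs the sign changed between arrays, so the order among the upper 4 genes is not resolved by neighbours. Their pairs further apart in the order kept their sign on all 3 arrays. The difference was 0.20 ± 0.05 for cct-6 over cct-7, 0.27 ± 0.23 for cct-6 over cct-1 and 0.22 ± 0.14 for cct-2 over cct-1. The lower end was steadier. The ratio of cct-1 exceeded that of cct-4 by 0.16, 0.23 and 0.19 on preps 1, 2 and 3 (0.19 ± 0.03), and that of cct-4 exceeded that of cct-5 by 0.41, 0.24 and 0.27 (0.31 ± 0.09).

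The gene cct-4 ranked last but one and cct-5 last on every array. Of all 15 pairs of members, 12 kept their sign on all 3 arrays. For the 9 pairs that involve cct-4 or cct-5 this follows from those ranks and adds nothing to them. The distance from cct-6 down to cct-5 was 1.06, 0.76 and 0.49 on preps 1, 2 and 3. These are differences between ratios, and say nothing about which subunit transcript was more abundant. With 3 paired values the smallest two-sided p of an exact sign-flip test is 0.25, so that test could not pass for any pair, and no other test of the pairs was run.

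The measured subunit genes are spread over the genome. In the RefSeq gene table of assembly WBcel235, cct-1, cct-2 and cct-4 are on chromosome II, cct-5 and cct-6 on chromosome III and cct-7 on chromosome V, and no CCT gene is the next protein-coding neighbour of another. Chromosome III thus holds the highest and the lowest of the measured ratios. Of the 12 nearest protein-coding neighbours, a set chosen after the CCT ratios were seen, 10 were measured, with 3 higher, 2 lower, 5 not past the threshold and a median log2 ratio of −0.26. Over all probes, 15.8% were called higher and 32.0% in either direction, and the neighbour counts were not tested against these shares. Both neighbours of cct-6 were higher, the helicase gene ddx-23 at 0.69 ± 0.07 (SD, n = 3) and the aldehyde dehydrogenase gene alh-9 at 1.47 ± 0.48, with adjusted p-values of 0.0095 and 0.00041 in limma. Of the neighbours of cct-1, the Dishevelled gene mig-5 was higher at 1.28 ± 0.29 (adjusted p = 0.00045) and T05C12.8 stood at −0.34 ± 0.32 (adjusted p = 0.21). The lower ones were B0457.2 beside cct-2 (−1.40 ± 0.19) and the neuropeptide-like gene nlp-55 beside cct-4 (−1.72 ± 0.33), with adjusted p-values of 0.00020 and 9.0e-05 in limma.

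Prefoldin, the complex that hands unfolded actin and tubulin to CCT, was measured through 5 of its 6 genes, of which 1 was higher and 4 did not pass. Among all probes, 15.8% were called higher. The gene pfd-3 had 1.40, 0.61 and 0.57 on preps 1, 2 and 3, a mean of 0.86 ± 0.47 (SD, n = 3; 2 probes, larger adjusted p 0.010 in limma). The other members were pfd-1 at 0.31 ± 0.34, pfd-5 at 0.12 ± 0.45, pfd-4 at −0.16 ± 0.35 and pfd-6 at −0.28 ± 0.47, and pfd-2 was not analysed here. Without prep 1, pfd-6 was called lower (−0.54, adjusted p = 0.039). The prefoldin median was 0.12, against 0.93 for the CCT genes and 0.00 for all probes. Within arrays the CCT mean exceeded the prefoldin mean by 0.55, 0.78 and 0.79, a difference that was not tested, since the members were chosen with results known.

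Tubulin folding cofactors receive tubulin released by CCT, and the list used for them also held the related genes coel-1, evl-20 and txdc-9. The 6 measured genes of this list had a median of 0.37, with 1 higher, 1 lower and 4 not past the threshold. Among all probes, 32.0% were called in either direction. The cofactor E gene tbce-1 was higher at 0.76 ± 0.56 (SD, n = 3, adjusted p = 0.021 in limma), a call lost without prep 1 (0.44, adjusted p = 0.077). The gene coel-1, a cofactor E-like gene, was lower at −1.41 ± 0.25 (adjusted p = 0.00022). The cofactor D gene tbcd-1 stood at 0.47 ± 0.20 (adjusted p = 0.064) and passed after scaling, after quantile normalization and without prep 1 (0.039, 0.025 and 0.029). The cofactor B gene tbcb-1 (0.34 ± 0.30), the Arl2 gene evl-20 (0.13 ± 0.17) and txdc-9 (0.39 ± 0.39), a thioredoxin domain gene related to phosducin-like proteins, did not pass.

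Substrates of CCT were mixed. All 5 actin genes had positive means, from 0.30 ± 0.26 (SD, n = 3) for act-3 to 0.73 ± 0.27 for act-2, and only act-2 passed (adjusted p = 0.011 in limma), a call lost without prep 3 (0.59, adjusted p = 0.12). The others were act-4 at 0.46 ± 0.45, act-5 at 0.44 ± 0.45 and act-1 at 0.40 ± 0.33. Actin genes are nearly identical, so their probes may bind more than the named member. The 16 tubulin genes had a median of 0.20, and 5 of them were higher, 2 were lower and 9 did not pass. For comparison, 15.8% of all probes were called higher and 32.0% in either direction.

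The higher tubulins were tbb-2 (1.49 ± 0.86, SD, n = 3), tbb-1 (1.47 ± 0.77), tba-2 (1.17 ± 0.42), tba-1 (1.06 ± 0.49) and ben-1 (0.85 ± 0.13), with adjusted p-values from 0.0012 to 0.0033 in limma. The first 4 of these encode the alpha and beta tubulins of the early embryo. The lowest member was tba-8 at −0.998 ± 0.61, and the other lower one, tba-9 at −0.72 ± 0.40, lost its call without prep 1 (adjusted p = 0.051). Tubulin genes are similar enough that signal may be shared among them. Of 4 WD-repeat substrates, the Cdc20 gene fzy-1 was higher at 1.29 ± 0.14 (adjusted p = 0.00030) and the G protein beta gene gpb-1 at 0.73 ± 0.63 (adjusted p = 0.031, lost without prep 1 at 0.13). The Cdh1 gene fzr-1 (0.27 ± 0.13) and gpb-2 (0.11 ± 0.47) did not pass. That these proteins are CCT substrates is known from yeast and mammals.

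Among other cytosolic chaperones, 9 of 15 measured genes of the Hsp70 and Hsp90 system were higher in limma and 6 did not pass. None was lower, also at an unadjusted p under 0.05 (0 genes), and the median was 0.87, close to the 0.93 of the CCT genes. The share of all probes called higher was 15.8%. The Hsp90 co-chaperone gene cdc-37, which serves kinases, was highest with 2.28, 1.01 and 1.27 on preps 1, 2 and 3 (1.52 ± 0.67, SD, n = 3, adjusted p = 0.00076). The Hsp70 gene hsp-1 stood at 1.22 ± 0.48 and the Hsp90 gene hsp-90 at 0.87 ± 0.32, with adjusted p-values of 0.0012 and 0.0045. The lowest was the ubiquitin ligase gene chn-1, the worm CHIP, at 0.05 ± 0.29. Within arrays the CCT mean and this list's mean were close, with differences of −0.05, 0.05 and 0.07 on preps 1, 2 and 3 (0.02 ± 0.06). The myosin chaperone gene unc-45 (0.62 ± 0.58, adjusted p = 0.051) passed without centring, after quantile normalization and without prep 1 or prep 3 (adjusted p = 0.046, 0.030, 0.048 and 0.017).

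Chaperones of other compartments were measured too. Of the mitochondrial list, values were at hand for hsp-6 (0.60 ± 0.54, SD, n = 3) and the Hsp90-type gene hsp-75 (0.48 ± 0.36), and the genes hsp-60 and hsp-10, the mitochondrial chaperonin and its lid, had no probe analysed here. Neither passed in limma (adjusted p = 0.053 and 0.077), but hsp-6 passed without centring (0.044), after quantile normalization (0.023) and without prep 3 (0.014), and hsp-75 after quantile normalization (0.044). Of 11 endoplasmic reticulum chaperone genes, 4 were higher and 1 lower, from hsp-4, a BiP gene, at 1.35 ± 0.46 to the calreticulin gene crt-1 at −0.57 ± 0.15. The count of higher genes was 3 without prep 3. It was 5 without centring, after scaling, after quantile normalization and without prep 1. The call of crt-1 was lost without prep 2 and without prep 3 (adjusted p = 0.16 and 0.072). For all probes as reported, 15.8% were called higher and 32.0% in either direction.

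A list of small heat shock protein genes and the inducible Hsp70 gene hsp-70 was mixed. The 10 measured genes had a median of 0.17, with 1 higher, 3 lower and 6 not past the threshold. Among all probes, 32.0% were called in either direction. The small heat shock protein gene sip-1, known for its role in reproduction and embryos, was higher at 1.16 ± 0.83 (SD, n = 3, adjusted p = 0.0064 in limma), whereas hsp-12.6 was lowest at −4.41 ± 0.45. The other lower genes were hsp-12.3 (−2.59 ± 0.47) and hsp-70 (−1.62 ± 0.27). Neither sip-1 nor the hsp-12 genes are known as heat-induced, and of the 4 measured genes of the heat-induced hsp-16 family none passed as reported. The count of higher genes was 2 without centring, after scaling and after quantile normalization, where hsp-16.1 passed (0.56 ± 0.43 and adjusted p = 0.053 as reported). The heat shock factor gene hsf-1, which encodes the activator of many chaperone genes, stood at 0.32 ± 0.15 (adjusted p = 0.20). A second hsf-1 probe, with values on preps 1 and 3 alone, disagreed, with deposited log2 ratios of −2.88 and −0.59. It was called lower when probes on at least 2 arrays were allowed (adjusted p = 0.016). Of the genes for proteins that bind HSF-1, ddl-1 was higher at 0.71 ± 0.54 (adjusted p = 0.027; 0.10 without prep 1), while hsb-1 (0.17 ± 0.22) and ddl-2 (0.04 ± 0.02) did not pass.

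**Figure D3:**
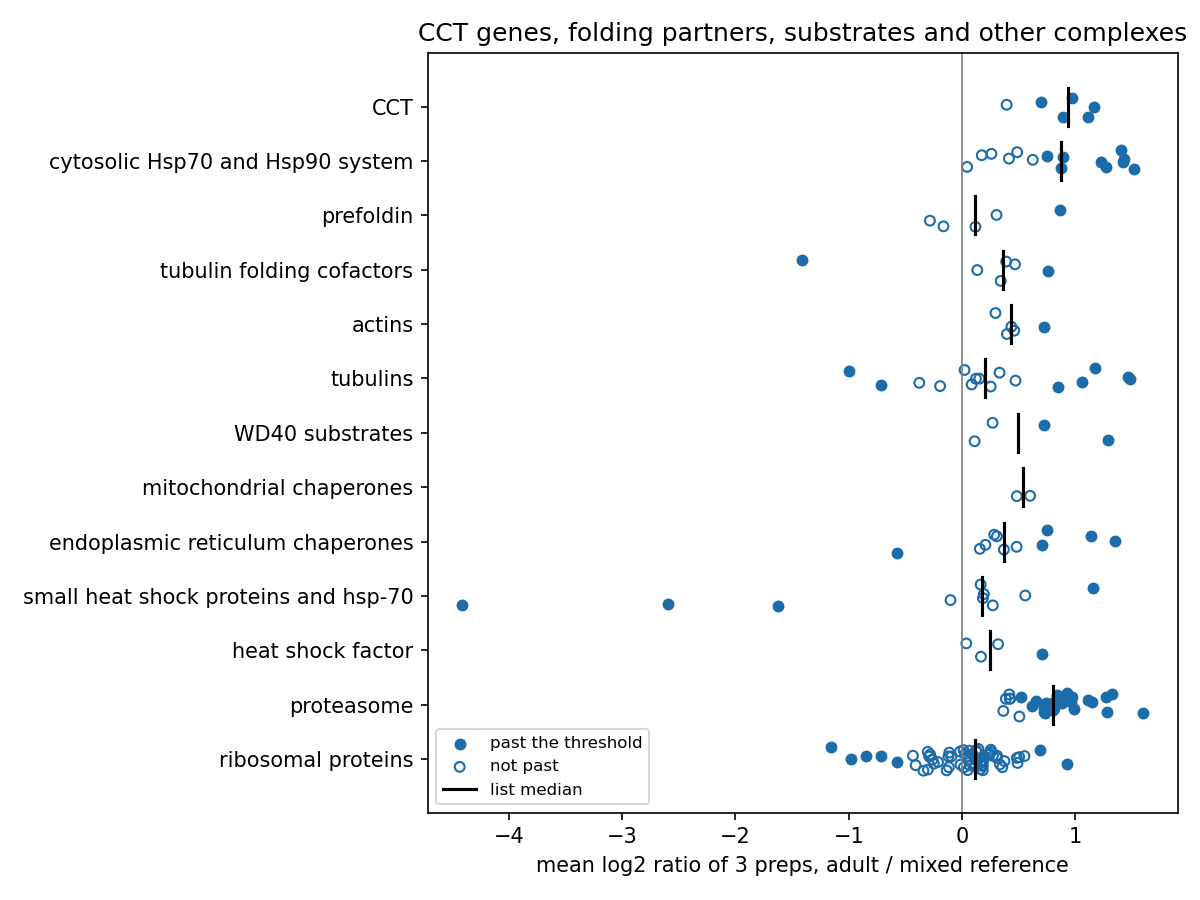
Mean log2 ratio over 3 preps (horizontal axis) of each measured gene in the CCT list and 12 companion lists (rows, with random vertical jitter). Filled points passed the adjusted threshold of 0.05 in limma, open points did not, and black bars are list medians. The CCT median of 0.93 lies near those of the Hsp70 and Hsp90 system (0.87) and the proteasome (0.81), and to the right of prefoldin (0.12) and ribosomal proteins (0.11).

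Other large cytosolic complexes were placed beside CCT. Over all 19710 probes, 15.8% were called higher (3116 probes) and 3186 probes were called lower. Proteasome subunits were higher for 24 of 30 measured genes, with 0 lower in limma (0 also at an unadjusted p under 0.05), a median of 0.81 and a range from pas-4 at 0.36 ± 0.42 (SD, n = 3) to rpn-1 at 1.60 ± 0.38. The count of higher genes was 19, 25 and 18 without prep 1, 2 and 3, and 26 after quantile normalization. The proteasome mean was 1.24, 0.44 and 0.79 on preps 1, 2 and 3, so that the CCT mean minus the proteasome mean was −0.07, 0.17 and 0.06. Ribosomal protein genes had a median of 0.11, with 2 of 63 higher and 5 lower, from rpl-23A.1 (−1.15 ± 0.43) to rpl-11.1 (0.92 ± 0.51). These genes were thus called less often than all probes in both directions, a difference that was not tested. Without prep 2, 7 were higher and 2 lower, and without prep 3, 1 was higher. Their means of 0.45, −0.46 and 0.09 changed sign between arrays, whereas the CCT mean exceeded them by 0.71, 1.07 and 0.76. All 3 lists were highest on prep 1 and lowest on prep 2, an array pattern that was thus not particular to the CCT genes.

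By the root mean square distance over the 3 array values, the genes nearest to the CCT mean profile among 15084 other genes were F46B6.5 and F52C6.2 (both 0.020), F32E10.5 (0.037), the tyrosine decarboxylase gene tdc-1 (0.038), ttc-4 (0.040), ekl-6 (0.040), the Aurora kinase gene air-1 (0.042) and the F-box gene sel-10 (0.043). For the CCT genes themselves the distance to their mean was 0.063 for cct-1, 0.14 for cct-7, 0.18 for cct-4, 0.26 for cct-2, 0.32 for cct-6 and 0.49 for cct-5. This distance takes in the level as well as the pattern over arrays.

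RNA came from whole worms, so fewer cells of a type and less RNA per cell cannot be told apart. A list of germline, oocyte and embryo markers was chosen with earlier results of these data known. Of its genes, 10 of 10 were higher in limma, against 15.8% of all probes. They ran from glp-1 at 1.21 ± 0.52 (SD, n = 3) to the yolk receptor gene rme-2 at 2.45 ± 0.74. The list mean was 2.41, 1.40 and 1.58 on preps 1, 2 and 3. This order of the arrays, prep 1 highest and prep 2 lowest, is the same as for the CCT genes. The prefoldin, proteasome and ribosomal protein lists had it too, so it was not particular to these markers. Of 3 yolk protein genes, vit-2 was higher and vit-5 and vit-6 did not pass. Of 10 sperm markers 6 were lower and 4 did not pass, of 6 neuron markers 4 were lower and 2 did not pass, and of 6 moulting cuticle markers 3 were lower and 3 did not pass. Over all 19710 probes, 3186 were called lower. Of 5 body wall muscle markers, 0 passed in limma, and 1, the troponin T gene tnt-2 (0.45 ± 0.36), had an unadjusted p under 0.05. The part of the germline and embryo share in the CCT ratios was not tested.

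**Figure D4:**
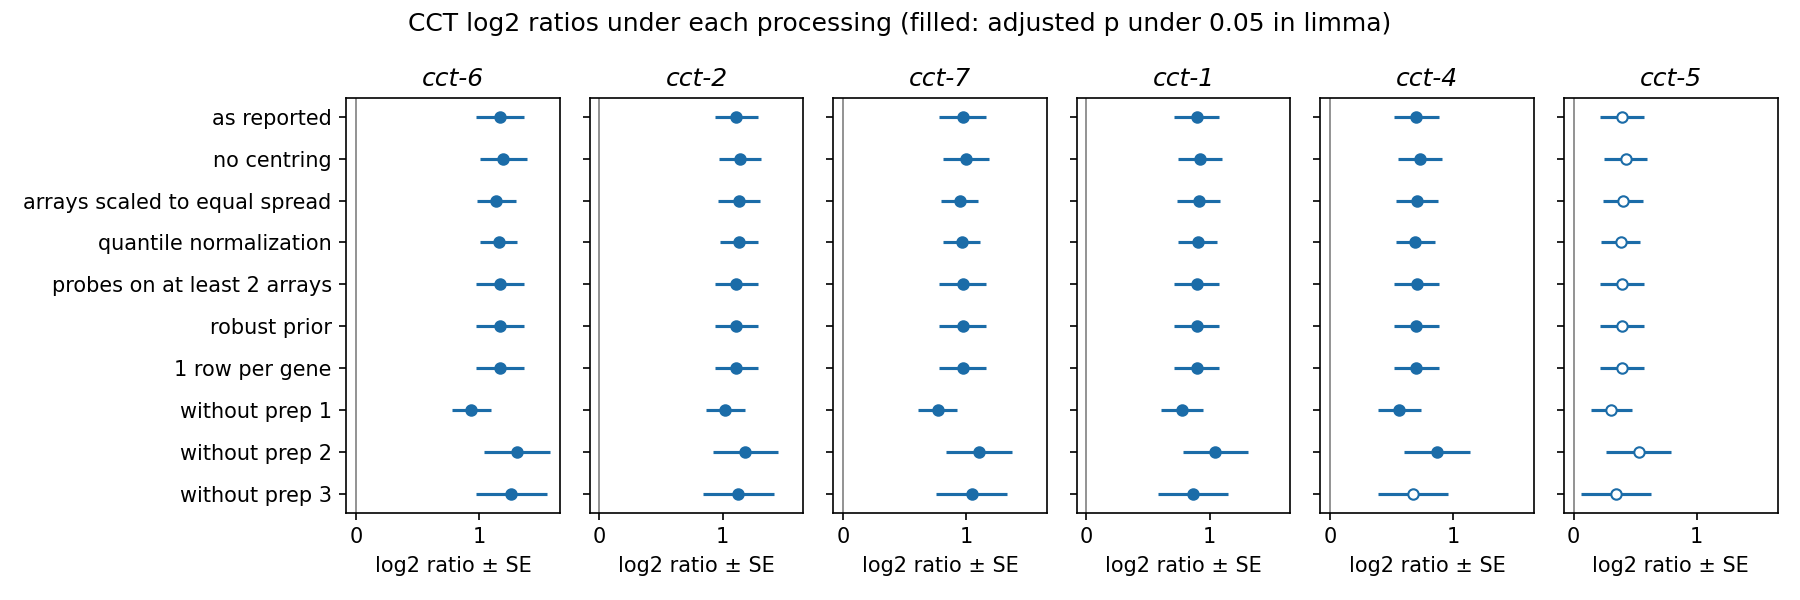
Log2 ratio ± standard error (horizontal axis) of each measured CCT gene as reported and under the 9 alternative settings (rows), with filled points where the adjusted p in limma was under 0.05. The 4 genes cct-6, cct-2, cct-7 and cct-1 are filled in every row, cct-4 in all rows but the one without prep 3, and cct-5 in none.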

How the data were processed

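The deposited table holds log2 ratios of the 2 channels, 1 column per array. The authors deposited it; per the labels, channel 1 is the reference. For the authors' normalization, filtering, direction and log base, and the genome build of the probes: not given in the sources used here. Base 2 was read from the values: 100% of them correspond to ratios on a grid of 0.001 (tolerance 0.00005, ratios under 3), against 10.7% for natural logs and 8.89% for base 10. The deposited medians were 0.019, 0.072 and −0.0087 on preps 1 to 3. No spot intensities were used here, so dim spots and dye effects could not be treated, and the number of arrays limits the precision.

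Of 20000 probes, 15655 had 1 gene, 198 several and 4147 none. Symbols were updated through RefSeq (WBcel235) by gene ID for 15569 and by accession for 7. After median centring, an intercept-only limma model (version 3.58.1, R 4.3.3; lmFit and eBayes) was fitted to the 19710 probes with a value on all arrays, two-sided, with Benjamini-Hochberg adjustment over all of them. A gene with several probes is their mean with the largest adjusted p, and is called when 1 probe passes. Preps correlated with Pearson r from 0.776 to 0.829 across probes. The code was tested on simulated data.

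The members and lists were chosen with earlier results of these data known. Named genes are all CCT genes, the highest and lowest of each companion list (all of lists with up to 8 genes) and the 8 nearest profiles; ben-1, tba-1, tba-2, tbb-1, tba-9, hsp-1, hsp-90, unc-45, hsp-16.1, hsp-12.3, hsp-70, the marker genes and the genomic neighbours were added after their values were seen. No sequences of the members were used here.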

Additional observations from a re-analysis of the deposited data

How the results depend on the processing

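The CCT results were recomputed without centring, with arrays scaled to equal spread, after quantile normalization, with probes on at least 2 arrays, with a robust prior, with 1 row per gene, and without each prep in turn. Each of these 9 settings kept every CCT ratio positive. The number of CCT genes past the threshold was 5 in each except without prep 3, where it was 4. Leaving out 1 prep gave means over the CCT genes from 0.728 to 1.01, and the other settings from 0.872 to 0.901. The adjusted p in limma of cct-6, cct-2, cct-7 and cct-1 stayed between 9.5e-05 and 0.012, that of cct-4 between 0.0044 and 0.065, and that of cct-5 between 0.077 and 0.43. With a prep left out, 1 residual degree of freedom remains and the spread is borrowed largely from other probes, and without prep 3 wholly, so that each CCT gene then had the same standard error of 0.29. Of 342 recomputed counts over the companion lists and all probes, 20 moved by more than 1.5 times. The one not given above was that of sperm markers higher, which went from 0 to 1 (msp-38) after quantile normalization. Each ratio already sets adult against reference RNA on the same array. No further pairing of samples between groups was possible because there is 1 group of samples.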
